A study of Homo sapiens with 23 samples.

Results

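The genes described here are 10 members of the Eph receptor and ephrin family: the A-type receptors EPHA2, EPHA3, EPHA4 and EPHA7, the B-type receptors EPHB2, EPHB3 and EPHB4, and the ligands EFNA1, EFNB1 and EFNB2. They are 10 of the 22 family genes that carry an Eph or ephrin name and are protein-coding receptors or ligands. The list was chosen with RNA levels of these same libraries known and was in that sense selected on them, so levels, fold changes and calls of the 10 genes are given as a description and support nothing further. All 10 were found by symbol in the 3 tables of counts, and every one is accounted for in each of the 9 groups.

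Eph receptors are receptor tyrosine kinases, and ephrins are their membrane-bound ligands, so both partners sit on the surfaces of touching cells. A-type ephrins are held to the membrane by a lipid anchor and bind mainly A-type receptors, whereas B-type ephrins span the membrane and bind mainly B-type receptors. Contact can send a signal into the cell that carries the receptor (forward) and into the cell that carries the ephrin (reverse). The family is known for guiding axons, setting tissue boundaries and shaping vessels, and in epithelia for repulsion, adhesion and sorting of cells. In prostate cancer cells, receptors of both types have been studied for their part in migration and in repulsion between cells.

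The libraries come from 2 androgen-sensitive human prostate adenocarcinoma lines. The medium of LNCaP was RPMI-1640 and that of LAPC4 was IMDM, both with serum, and all LAPC4 cells, vector included, also received the synthetic androgen R1881 at 1 nM. ONECUT2 (OC2), a transcription factor with a CUT domain and a homeodomain, was overexpressed in LNCaP (2 libraries, beside 2 labelled control) and in LAPC4 (3 libraries, beside 3 labelled Vec, called vector here). It was targeted by 1 short hairpin in LNCaP (shOC2, 2 libraries, beside 2 with the hairpin shCon). In the drug experiment LNCaP cells received for 7 days vehicle control, enzalutamide (an antiandrogen drug) at 10 µM, or enzalutamide at 10 µM together with an OC2 inhibitor at 10 µM, with 3 libraries each. No group received the OC2 inhibitor without enzalutamide. The labels name neither the vector nor its promoter, nor do they say whether cells were clones. The labels do not say whether the libraries of a group came from separate cultures, so SDs and adjusted p-values measure the spread between these libraries, which may be technical.

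Levels are CPM (counts scaled to a common library size) on TMM-scaled library totals, and log2 fold changes come from edgeR's quasi-likelihood fit with their standard errors (SE). A gene is called higher or lower when its Benjamini-Hochberg adjusted p over all tested genes is below 0.05. The 23 libraries hold between 20964025 and 30465978 counts, and the 3 tables were normalised separately, so levels set side by side across tables carry that difference. ONECUT2 itself stood at 24.6 and 30.7 CPM in LNCaP control and 332 and 304 CPM in LNCaP overexpression, at 13.3 to 17.1 CPM in LAPC4 vector and 805 to 968 CPM in LAPC4 overexpression, and at 20.4 and 21.2 CPM in shCon against 12.1 and 12.2 CPM in shOC2. The labelled direction was thus present in every library of these 6 groups. The luminal prostate markers KLK3, HOXB13 and KRT8 each had at least 1 CPM in each of the 9 groups, while none of 5 leukocyte markers did. Of 5 endothelial markers VWF had the highest mean in each group, from 2.50 CPM in LAPC4 overexpression to 18.5 CPM in vehicle. It stood at 6.12 CPM in enzalutamide and 7.31 CPM in the combination. Of 6 fibroblast markers COL1A1 was highest in the LNCaP groups, at up to 35.1 CPM in the combination. Basal markers KRT5, KRT14 and TP63 summed to between 0.138 and 1.45 CPM in LNCaP groups, 18.5 to 101 CPM in LAPC4 vector and 315 to 339 CPM in LAPC4 overexpression. The 5 neural markers, led by TUBB3 in most LNCaP groups, summed to between 21.8 and 24.0 CPM in LNCaP control and 114 to 119 CPM in LNCaP overexpression. Their sums were 26.2 to 26.7 CPM in shCon and 53.0 to 57.1 CPM in shOC2, so they were higher with the hairpin too. LAPC4 vector held 7.73 to 8.72 CPM and LAPC4 overexpression 8.41 to 10.1 CPM, which overlapped. In the drug experiment the sums were 54.7 to 56.0 CPM in vehicle, 9.74 to 12.4 CPM in enzalutamide and 68.1 to 116 CPM in the combination. The part of these shifts in the values below was not tested.

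Some libraries stood apart from the others of their group. In the chi-square statistic per degree of freedom over genes, replicate 2 of the combination differed from replicates 1 and 3 by 16.4 and 16.0, which differed from each other by 3.35. Replicate 3 of LAPC4 vector differed from replicates 1 and 2 by 36.1 and 20.2, against 4.68 between those. The first enzalutamide column differed from the other two by 77.1 and 51.7, against 22.4. Values that change call or direction, or move by over 1.5 times, without these libraries are given with and without them. The enzalutamide columns hold whole counts and came from another counting step than the estimated counts of vehicle and combination, and 101 of 11102 genes with at least 300 counts in both of those arms were at 0 in all enzalutamide columns. An effect of enzalutamide and one of the counting step therefore cannot be told apart.

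The genes lie on 7 chromosomes (hg38, GENCODE 29, the gene models used here). No source used here says which annotation the deposited counts were made on. EPHA2 spans 16124337 to 16156087 and EPHB2 22710839 to 22921500 on chromosome 1, where EFNA1 spans 155127460 to 155134857. EPHA3 (89107524 to 89482134) and EPHB3 (184561784 to 184582409) lie on chromosome 3. EPHA4 lies on chromosome 2 (221418027 to 221574202), EPHA7 on chromosome 6 (93240020 to 93419547) and EPHB4 on chromosome 7 (100802565 to 100827521). EFNB2 lies on chromosome 13 (106489731 to 106535662) and EFNB1 on the X chromosome (68828997 to 68842147). Exons of EPHA4, EPHB2, EPHB4 and EFNB2 overlap a gene on the opposite strand (AC079834.2, MIR4253, SLC12A9 and AL138689.2). No source used here says whether the counting used strand, so reads of these overlaps cannot be told apart.

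Upstream sequences are printed for 4 genes whose levels varied widely between the LNCaP groups, EPHA3, EFNB2, EPHA7 and EPHA2, to show what lies before the starts of genes with such different behaviour (RefSeq, GRCh38.p14, gene strand, 5′ to 3′, up to the annotated start). Capitals mark matches to 5 short motifs searched on both strands. They are the core ATTGAT bound by CUT-domain factors, its palindromic form ATCGAT, the TATA box letters TATAAA, the GC box letters GGGCGG and the CCAAT box.
EPHA3 (chr3:89107371-89107523, plus strand): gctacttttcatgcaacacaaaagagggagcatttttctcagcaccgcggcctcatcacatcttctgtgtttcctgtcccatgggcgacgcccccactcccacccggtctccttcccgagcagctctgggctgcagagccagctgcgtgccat
EFNB2 (chr13:106535663-106535912, minus strand): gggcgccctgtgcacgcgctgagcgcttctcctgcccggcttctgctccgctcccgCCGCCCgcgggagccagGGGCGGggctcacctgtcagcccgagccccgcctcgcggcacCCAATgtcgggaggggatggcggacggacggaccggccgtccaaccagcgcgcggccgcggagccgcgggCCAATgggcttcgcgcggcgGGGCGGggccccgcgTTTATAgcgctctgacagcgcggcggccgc
EPHA7 (chr6:93419560-93419809, minus strand): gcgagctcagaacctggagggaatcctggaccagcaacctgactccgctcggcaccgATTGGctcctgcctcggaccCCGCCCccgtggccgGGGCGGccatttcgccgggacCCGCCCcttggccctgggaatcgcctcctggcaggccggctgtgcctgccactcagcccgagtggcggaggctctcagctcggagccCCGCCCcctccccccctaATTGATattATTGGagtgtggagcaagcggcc
EPHA2 (chr1:16156088-16156319, minus strand): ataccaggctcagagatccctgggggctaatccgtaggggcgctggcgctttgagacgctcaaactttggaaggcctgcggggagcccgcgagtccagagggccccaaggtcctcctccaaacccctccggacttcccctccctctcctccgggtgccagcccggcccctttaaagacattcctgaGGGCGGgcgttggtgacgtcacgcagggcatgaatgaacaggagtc

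All 10 genes had a RefSeq window of 300 bases (250 before and 50 after a start), and some had several, 14 windows in all. ATTGAT was found in 1 of the 14, the EPHA7 window printed above, at position -32 from the RefSeq start; 6.26% of all 35116 windows hold it. ATCGAT was in none of the 14 and in 0.76% of all windows. TATAAA was found before EFNB2, on the other strand at -30, and in another window of EPHA7 (11.53% of all windows). GGGCGG was in the windows of 9 of the 10 genes, all but EPHA3, and in 44.95% of all windows, and CCAAT stood in 34.61% of all windows. The GGGCGG count is per gene, and its share is per window, so they are not directly comparable. The share of G and C before the start ran from 43.2% (EPHA4) to 84.8% (EPHB2) in the 14 windows, against a median of 58.0% over all windows. The EPHA3 window held none of the 5. A match is only a match of letters, and its absence in this stretch says nothing about binding elsewhere.

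**Figure D1:**
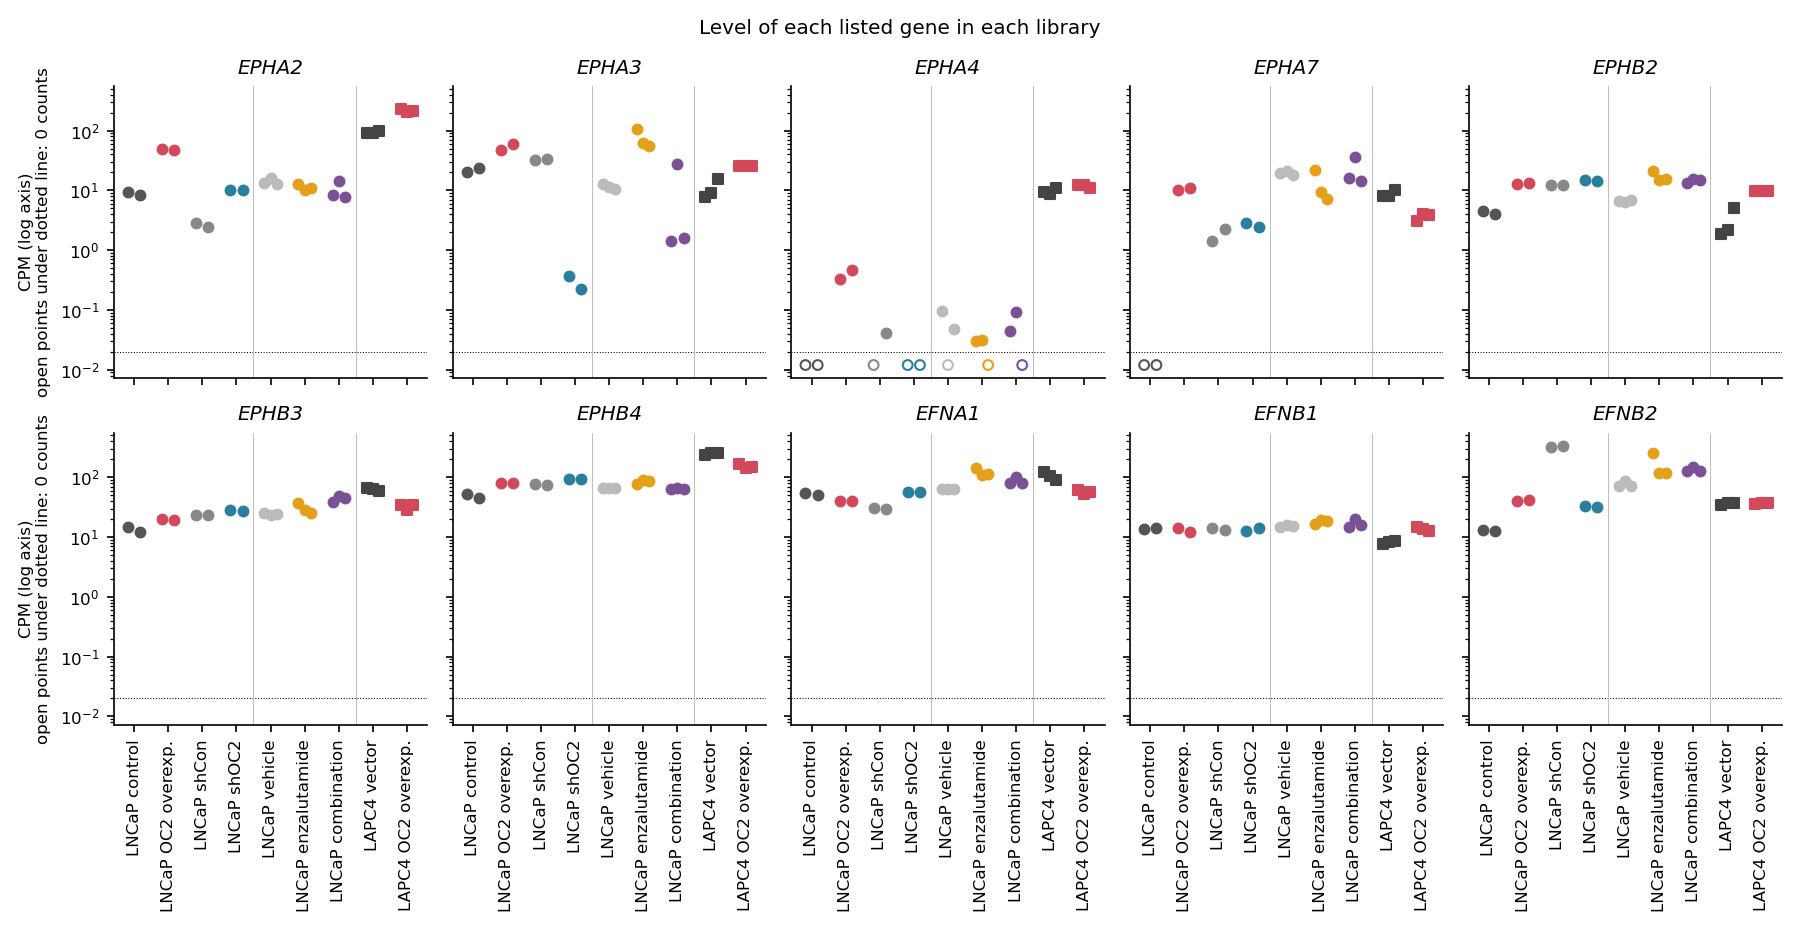
Level of each of the 10 genes in every library (CPM, log axis), by group; circles are LNCaP libraries, squares LAPC4 libraries, and open points under the dotted line are libraries with 0 counts. EPHA3 is lowest in the 2 shOC2 libraries (0.226 and 0.369 CPM) and highest in the first enzalutamide column (108 CPM), and EPHA7 has 0 counts in both LNCaP control libraries.

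The first question was how each gene stood with OC2 overexpression and with the hairpin, beginning with the A-type receptors. Among the genes with reads in every group, which leaves out EPHA4 and EPHA7, EPHA3, a receptor for A-type ephrins such as ephrin-A5, had the widest range. Its mean ran from 0.298 CPM in shOC2 to 74.8 CPM in enzalutamide, a ratio of 251.5. In LNCaP it stood at 20.4 and 23.6 CPM in control and at 46.8 and 58.9 CPM in overexpression. Both overexpression libraries were above both control libraries, a log2 fold change of 1.24 ± 0.12 (SE). With the hairpin it stood at 32.4 and 34.1 CPM in shCon and at 0.369 and 0.226 CPM in shOC2, which are 8 and 5 counts. The shOC2 mean was 112-fold lower, with a log2 fold change of -6.78 ± 0.17, and against control in place of shCon the value was -6.19. In LAPC4 the vector libraries held 7.87, 9.23 and 15.8 CPM and the overexpression libraries 25.6, 25.6 and 25.8 CPM. The 2 groups did not overlap (log2 fold change 1.23 ± 0.21), and without vector replicate 3, the highest of its group, the value was 1.58. EPHA3 was therefore higher with overexpression in both lines and lower with the hairpin. ONECUT2 itself was 1.7-fold lower in shOC2 than in shCon (-0.77 ± 0.09). Whether the EPHA3 value came from the OC2 level or from this 1 hairpin was not tested. In these bulk libraries fewer cells with a transcript and less RNA per cell cannot be told apart.

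EPHA2, the A-type receptor best known from epithelia and carcinoma, stood at 9.34 and 8.45 CPM in LNCaP control and at 49.0 and 48.0 CPM in overexpression. Its overexpression mean was 5.45-fold that of control (log2 fold change 2.43 ± 0.10). The hairpin pair did not mirror this: shCon held 2.81 and 2.45 CPM and shOC2 10.0 and 10.1 CPM, a log2 fold change of 1.94 ± 0.15 in the same direction as overexpression. Here the reference groups matter, since shCon lay 3.38-fold below control (log2 fold change -1.76 ± 0.17) and shOC2 differed from control by only 0.18 on the log2 scale, which was not called. In LAPC4, EPHA2 stood at 90.5, 91.8 and 100 CPM in vector and at 226, 203 and 215 CPM in overexpression. The LAPC4 groups did not overlap either, with a log2 fold change of 1.19 ± 0.07. EPHA2 was thus higher with OC2 overexpression in both lines, and the order of the 9 group means put both LAPC4 groups and LNCaP overexpression at the top and shCon at the bottom.

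EPHA7, a receptor of A-type ephrins with known roles in the developing cortex, had 0 counts in both LNCaP control libraries. It stood at 10.0 and 11.2 CPM in LNCaP overexpression, at 1.45 and 2.24 CPM in shCon and at 2.91 and 2.49 CPM in shOC2. Against a floor of 3 counts per library (0.139 CPM in control), overexpression was at least 76.1-fold higher, shCon at least 13.2-fold and shOC2 at least 19.4-fold. These bounds cover the counting error of the control libraries only and take the other mean as observed. The vehicle libraries, also LNCaP, held 18.4 to 21.03 CPM, so EPHA7 was not at 0 in every LNCaP reference group. The shOC2 and shCon libraries did not overlap, yet their difference was not called (0.55 ± 0.27), and without shCon replicate 2 it was 0.90 and called higher. In LAPC4 the direction was the opposite of that in LNCaP: vector held 8.21, 8.20 and 10.2 CPM and overexpression 3.03, 4.001 and 3.91 CPM, a log2 fold change of -1.28 ± 0.15.

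EPHA4, a receptor that binds ephrins of both types, was close to absent from LNCaP. It had 0 counts in control and shOC2, at most 2 counts in any shCon, vehicle, combination or enzalutamide library, and 7 and 10 counts (0.332 and 0.473 CPM) in overexpression. The observed overexpression mean was 2.89-fold the same floor, a ratio that leaves out the counting error of these 7 and 10 counts. With all libraries the gene did not pass the filter on low counts in any LNCaP comparison. It was tested and called higher with overexpression in DESeq2, without the filter and without either control library, fits that rest on the same few counts. In LAPC4 it stood at 9.47, 8.68 and 10.9 CPM in vector and 12.3, 12.1 and 10.9 CPM in overexpression. These ranges touched, and the log2 fold change of 0.28 ± 0.12 was not called, while without vector replicate 3 it was 0.37 and called higher. Its level was thus above 8 CPM in each LAPC4 library and below 0.5 CPM in each LNCaP library.

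Among the B-type receptors, EPHB2, which sorts cells along the intestinal crypt, was higher with overexpression in both lines. LNCaP control held 4.50 and 3.96 CPM and overexpression 12.8 and 13.3 CPM (log2 fold change 1.61 ± 0.14). LAPC4 vector held 1.88, 2.20 and 5.05 CPM, the last in replicate 3, and overexpression 9.80, 9.73 and 9.85 CPM. No vector library reached the overexpression range, and the log2 fold change of 1.69 ± 0.29 became 2.26 without vector replicate 3. The LNCaP difference rests on the reference, however: shCon, with 12.3 and 12.1 CPM, was already level with overexpression, and against shCon the value was 0.09 and not called. shOC2, with 15.1 and 14.2 CPM, was slightly above shCon (0.27 ± 0.09), a call that was lost in DESeq2, without the filter on low counts and on leaving out any of the 4 libraries.

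EPHB3, a close relative of EPHB2 with similar ligands, and EPHB4, the main receptor of ephrin-B2 in vessels, were each higher with overexpression in LNCaP and lower with it in LAPC4. EPHB3 stood at 14.9 and 12.3 CPM in LNCaP control and at 19.9 and 19.1 CPM in overexpression, a log2 fold change of 0.51 ± 0.12, which turned to -0.28 against shCon. In LAPC4 it stood at 65.0, 64.5 and 59.7 CPM in vector and at 34.1, 28.3 and 34.2 CPM in overexpression (-0.97 ± 0.09). EPHB4 stood at 51.8 and 44.8 CPM in LNCaP control and at 80.0 and 78.6 CPM in overexpression (0.70 ± 0.09), which became 0.05 and was not called against shCon. In LAPC4 it stood at 236, 250.5 and 258 CPM in vector and at 165, 141 and 149 CPM in overexpression (-0.71 ± 0.08). In neither line did the groups overlap for either gene. Under the hairpin both were slightly higher, EPHB3 by 0.26 ± 0.07 and EPHB4 by 0.29 ± 0.05 on the log2 scale, and the EPHB3 call was lost in DESeq2 and without either shOC2 library (0.24 and 0.30).

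EFNB2, the B-type ephrin known from arteries and bound by EPHB4, differed widely between the control sets. LNCaP control held 13.2 and 12.5 CPM, shCon 320 and 335 CPM and vehicle 72.1, 87.2 and 72.7 CPM, so that shCon stood 25.5-fold above control. Overexpression, with 40.8 and 41.9 CPM, was therefore above control (log2 fold change 1.67 ± 0.09) and below shCon (-2.99). In the same way shOC2, with 33.6 and 32.3 CPM, was 9.93-fold below shCon (-3.30 ± 0.06) and above control (1.36). The direction of both EFNB2 differences in LNCaP thus depends on which control set is read. In LAPC4, vector held 34.4, 36.7 and 36.9 CPM and overexpression 35.03, 37.1 and 37.1 CPM, which overlapped, with a log2 fold change of 0.02 ± 0.07.

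EFNA1, the A-type ephrin that binds EPHA2, was lower with overexpression in both lines. It stood at 53.8 and 50.7 CPM in LNCaP control and at 40.7 and 39.9 CPM in overexpression (-0.39 ± 0.08), but shCon was lower still, with 31.1 and 29.2 CPM, and against shCon the sign turned (0.41). In LAPC4 it stood at 123, 106 and 91.2 CPM in vector and at 61.8, 51.9 and 57.5 CPM in overexpression (-0.90 ± 0.11). shOC2 held 56.4 and 55.7 CPM, above shCon by 0.90 ± 0.06 on the log2 scale. EFNB1, a B-type ephrin whose gene lies on the X chromosome, was the steadiest of the 10 in LNCaP, with means between 13.1 and 13.9 CPM in control, overexpression, shCon and shOC2. In LAPC4 it stood at 7.62, 8.27 and 8.46 CPM in vector and at 14.5, 13.4 and 12.4 CPM in overexpression, a log2 fold change of 0.73 ± 0.11 with no overlap.

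**Figure D2:**
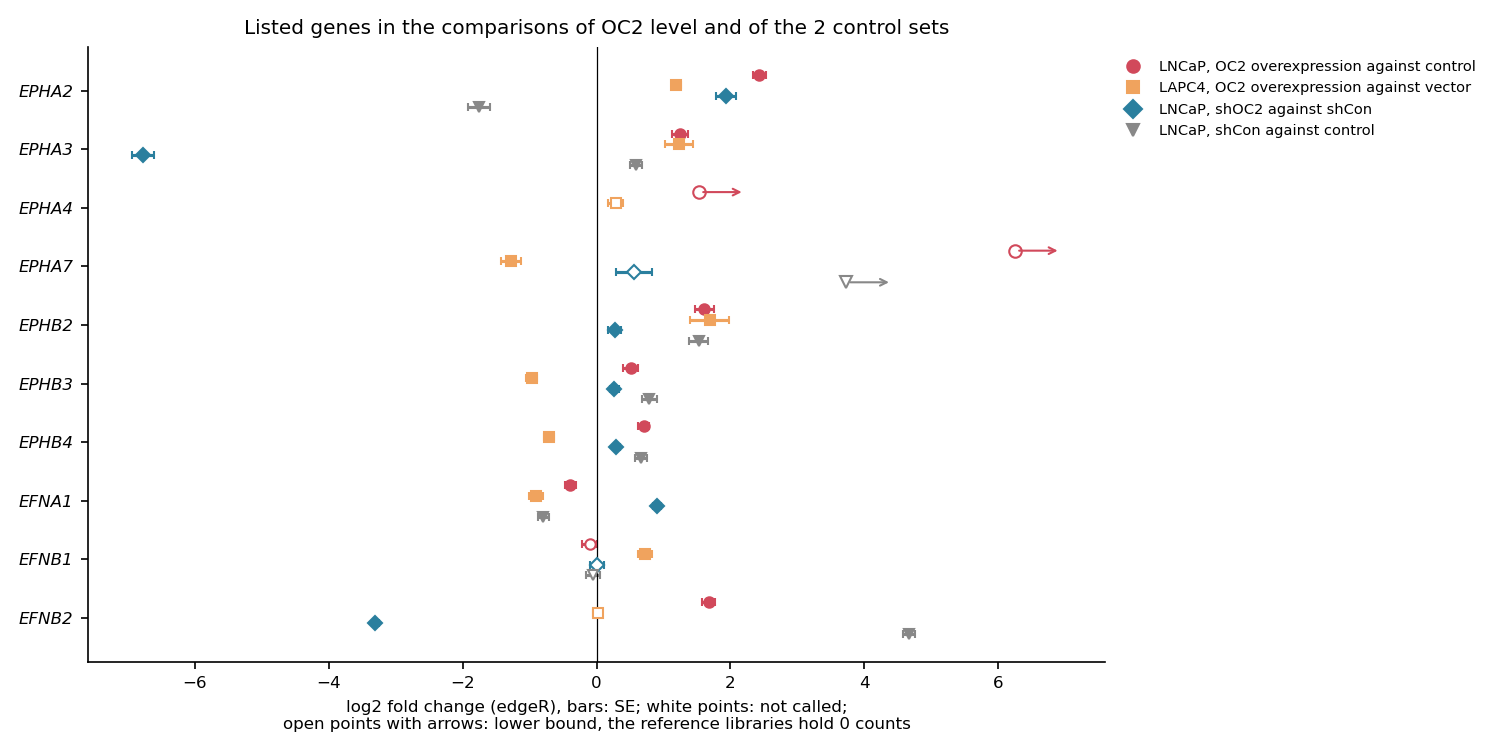
Log2 fold change of each gene in 4 comparisons, with SE bars, where white points were not called. Open points with an arrow are drawn as lower bounds against control libraries with 0 counts (EPHA4 and EPHA7). With all libraries EPHA4 did not pass the filter on low counts in any LNCaP comparison, and its bound leaves out the error of its own few counts. The shOC2 points of EPHA3 (-6.78) and EFNB2 (-3.30) lie far to the left, and the shCon point of EFNB2 (4.67) lies far to the right.

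By count, 9 of the 10 genes were tested in LNCaP overexpression against control, all but EPHA4, and 7 were called higher and 1 (EFNA1) lower. Among all 17046 genes tested in that comparison, 31.6% were called higher and 29.3% lower. The median log2 fold change was 1.24 over the 9 genes and 0.02 over all genes tested. With shCon as the reference, 4 were called higher and 2 lower. In LAPC4 all 10 were tested, with 4 called higher (EPHA2, EPHA3, EPHB2 and EFNB1) and 4 lower (EPHA7, EPHB3, EPHB4 and EFNA1), a median of 0.15, against 32.1% higher and 29.0% lower of 16904 genes. For shOC2 against shCon, 5 of 9 were called higher and 2 lower, a median of 0.27, against 27.3% and 26.8% of 16585 genes. Because the list was chosen with such values known, nothing is read from these counts against their backgrounds.

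The 2 control sets of the LNCaP table were compared directly, since both serve as references. For shCon against control, 6 of the 9 tested genes were called higher and 2 lower, beside 28.3% higher and 28.1% lower of all 16790 genes tested. EFNB2 (4.67 ± 0.09), EPHB2 (1.52 ± 0.14), EPHB3 (0.79 ± 0.11), EPHB4 (0.66 ± 0.09) and EPHA3 (0.59 ± 0.10) were higher in shCon, together with EPHA7, whose control libraries held 0 counts. EPHA2 (-1.76 ± 0.17) and EFNA1 (-0.80 ± 0.08) were lower, and EFNB1 (-0.05 ± 0.10) was not called. Beside them, the values for overexpression against control were 1.67 for EFNB2, 1.61 for EPHB2, 0.51 for EPHB3 and -0.39 for EFNA1. EFNB2, EPHB3 and EFNA1 thus had larger values between the control sets than with overexpression, a contrast that was not itself tested. Over control, shCon and vehicle the means of EPHA2 differed by up to 5.35-fold, those of EFNA1 by 2.10-fold and those of EFNB1 by 1.13-fold. The control and shCon libraries carry different kinds of library names in the labels, and what set them apart was not tested.

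The lines differed in their response to overexpression. In a joint model of the LNCaP and LAPC4 ratios, the difference (LAPC4 minus LNCaP log2 fold change) was called for 8 of the 10 genes, 1 higher and 7 lower, beside 25.4% higher and 24.1% lower of 19633 genes tested. EFNB1 was the gene with the higher value in LAPC4 (0.83 ± 0.16). EFNB2 (-1.66 ± 0.11), EPHB3 (-1.48 ± 0.15), EPHB4 (-1.41 ± 0.12), EPHA2 (-1.24 ± 0.12) and EFNA1 (-0.52 ± 0.16) had lower values in LAPC4, as had EPHA7 and EPHA4, whose fitted differences rest on control libraries with 0 counts. EPHA3 (-0.02 ± 0.30) and EPHB2 (0.08 ± 0.40) were not called, and without LAPC4 vector replicate 3 the EPHB2 difference was 0.67 and called higher, and that of EPHA3 was 0.36 and not called. With shCon as the LNCaP reference, 9 of the 10 were called, 3 higher and 6 lower, and the EFNB2 difference turned to 2.95. For EPHB2 the LNCaP overexpression mean (13.0 CPM) was level with shCon (12.2 CPM), while its LAPC4 log2 fold change was 1.69. The small EPHB2 difference between lines thus holds only with control as the reference.

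In the drug experiment the question was how the genes stood after enzalutamide alone and with the OC2 inhibitor added. EPHA3 stood at 12.8, 11.3 and 10.4 CPM in vehicle, at 108, 61.3 and 55.0 CPM in enzalutamide and at 1.40, 27.7 and 1.59 CPM in the combination. Every enzalutamide library was above every vehicle library (log2 fold change 2.70 ± 0.83), and every combination library below every enzalutamide library (-2.87 ± 0.84). Against vehicle the combination was split, with 2 libraries below and replicate 2 above, and the value of -0.17 ± 0.85 was not called. Without combination replicate 2 it was -2.94 ± 0.37 and called lower, and against enzalutamide it was -5.63. Without vehicle replicate 3, the EPHA3 difference between enzalutamide and vehicle was 2.62 and no longer called.

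EPHA2 stood at 13.5, 15.9 and 12.9 CPM in vehicle, at 12.8, 10.3 and 10.9 CPM in enzalutamide and at 8.29, 14.4 and 7.71 CPM in the combination. Its combination value of -0.47 ± 0.22 against vehicle was not called, and without combination replicate 2 it was -0.81 and called lower. EPHA7 stood at 19.8, 21.03 and 18.4 CPM in vehicle, at 21.6, 9.55 and 7.31 CPM in enzalutamide and at 16.1, 35.8 and 14.4 CPM in the combination. The library that stood apart in each treated arm was thus also its highest for EPHA2 and EPHA7, and no EPHA7 difference was called with all libraries. Without the first enzalutamide column, EPHA7 was called lower in enzalutamide than in vehicle (-1.23 ± 0.33) and higher in the combination than in enzalutamide (1.40 ± 0.33).

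**Figure D3:**
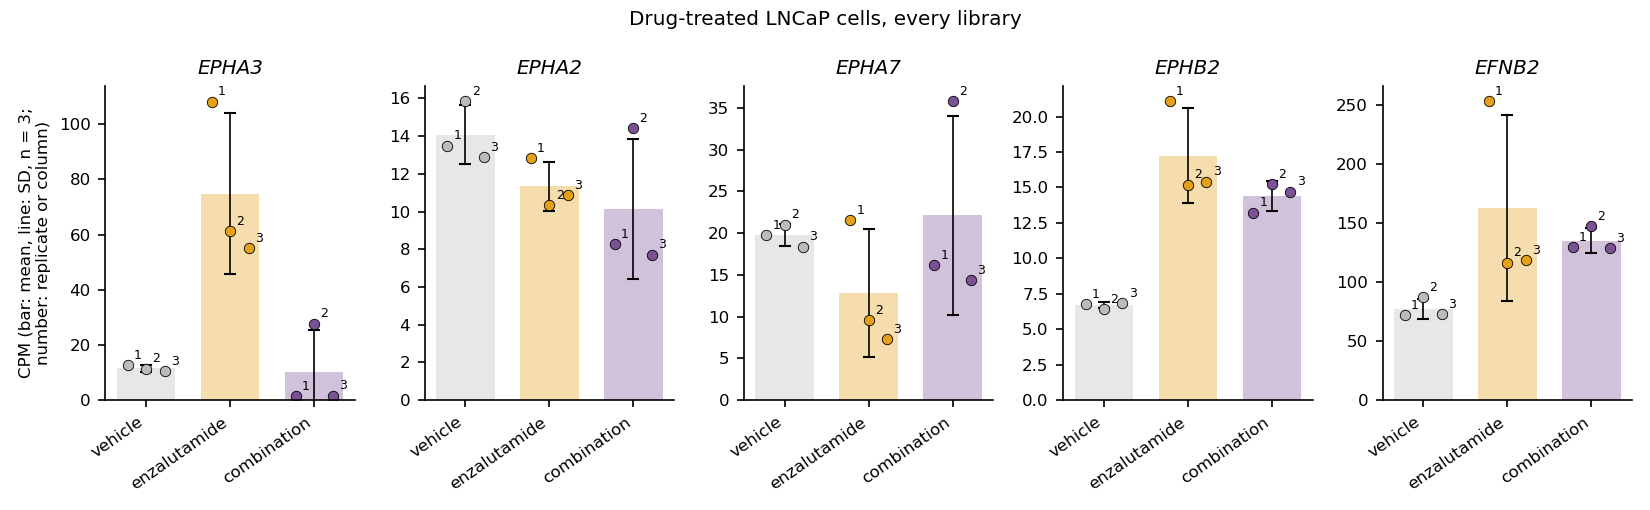
CPM of 5 of the genes in each drug-treated library (points, numbered by replicate, or by column for enzalutamide), with the mean as a bar and the SD as a line, n = 3 per arm; the SD of EPHA3 in the combination exceeds its mean and runs below the axis. The first enzalutamide column and combination replicate 2 are the highest of their arms in all 5 panels.

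EPHB2 stood at 6.77, 6.43 and 6.85 CPM in vehicle, at 21.1, 15.2 and 15.4 CPM in enzalutamide and at 13.2, 15.2 and 14.7 CPM in the combination. Both treated arms lay above vehicle, by 1.37 ± 0.15 and 1.11 ± 0.15 on the log2 scale. EPHB3 was higher in the combination (39.2, 49.1 and 44.2 CPM) than in vehicle (25.3, 23.2 and 24.1 CPM), by 0.87 ± 0.14, and higher than in enzalutamide (37.3, 28.8 and 24.9 CPM), by 0.54 ± 0.14. EPHB4 was close in vehicle (65.5, 66.5 and 67.1 CPM) and combination (62.7, 66.8 and 63.4 CPM), and higher in enzalutamide (76.6, 90.9 and 88.0 CPM; 0.36 ± 0.08 against vehicle). The B-type receptors thus showed 3 patterns over the same arms.

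Of the ligands, EFNB2 stood at 72.1, 87.2 and 72.7 CPM in vehicle, at 253, 116 and 118 CPM in enzalutamide and at 129, 147 and 128 CPM in the combination. No treated library fell into the vehicle range. The difference from vehicle was 1.07 ± 0.26 for enzalutamide, or 0.60 without its first column, and 0.80 ± 0.26 for the combination, whose call was lost on leaving out any 1 of the 3 combination libraries or vehicle replicate 1 or 3, with values of 0.74 to 0.84. Fitted without the enzalutamide arm, the combination value was 0.81 ± 0.09 and called. EFNA1 was at 62.6 to 64.0 CPM in vehicle, 111 to 143 CPM in enzalutamide (0.95 ± 0.12) and 78.7 to 101 CPM in the combination (0.45 ± 0.12). EFNB1 held 15.0 to 15.9 CPM in vehicle, 16.6 to 18.9 CPM in enzalutamide and 14.6 to 19.96 CPM in the combination, and none of its differences was called.

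For the combination against vehicle, 4 of 9 tested genes were called higher and 0 lower by edgeR and by DESeq2 (0 lower at an unadjusted p under 0.05), beside 23.2% higher and 23.6% lower of all 17439 genes tested. Without combination replicate 2 the count was 3 higher and 2 lower. For enzalutamide against vehicle, 5 were called higher and 0 lower by both tools (0 lower at an unadjusted p under 0.05), beside 34.7% and 35.6% of all genes. Without the first enzalutamide column that count was 5 higher and 1 lower. For the combination against enzalutamide, 1 was called higher and 3 lower, beside 31.4% and 30.4%. Without combination replicate 2 the count was 1 higher and 4 lower, and without the first enzalutamide column 2 higher and 3 lower. These 3 comparisons share libraries, and the 2 with enzalutamide carry the difference in counting. ONECUT2 stood at 14.1 to 17.0 CPM in vehicle, 20.9 to 30.3 CPM in enzalutamide and 13.3 to 16.0 CPM in the combination, where its difference from vehicle (-0.15 ± 0.15) was not called.

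Levels of different genes were compared per kilobase of the longest annotated transcript. In LNCaP control EFNA1 was the highest of the 10, at 27.1 ± 1.13 CPM per kb (SD, n = 2), ahead of EPHB4 at 9.54 ± 0.97. In vehicle EFNA1 was again highest (32.9 ± 0.37, n = 3), followed by EFNB2 (15.5) and EPHB4 (13.1). In shCon EFNB2 led at 65.6 ± 2.02 CPM per kb, with EFNA1 (15.7) and EPHB4 (15.1) nearly level, and on the length of the exon union their order turned (11.88 and 11.91). LAPC4 vector held EFNA1 at 55.5 ± 8.31, EPHB4 at 49.1 ± 2.25, EPHA2 at 23.8 and EPHB3 at 14.9 CPM per kb. The ligand EFNA1 and the receptor EPHB4 were thus among the 3 highest in each of these 4 groups, whereas EPHA2 was so only in LAPC4.

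**Figure D4:**
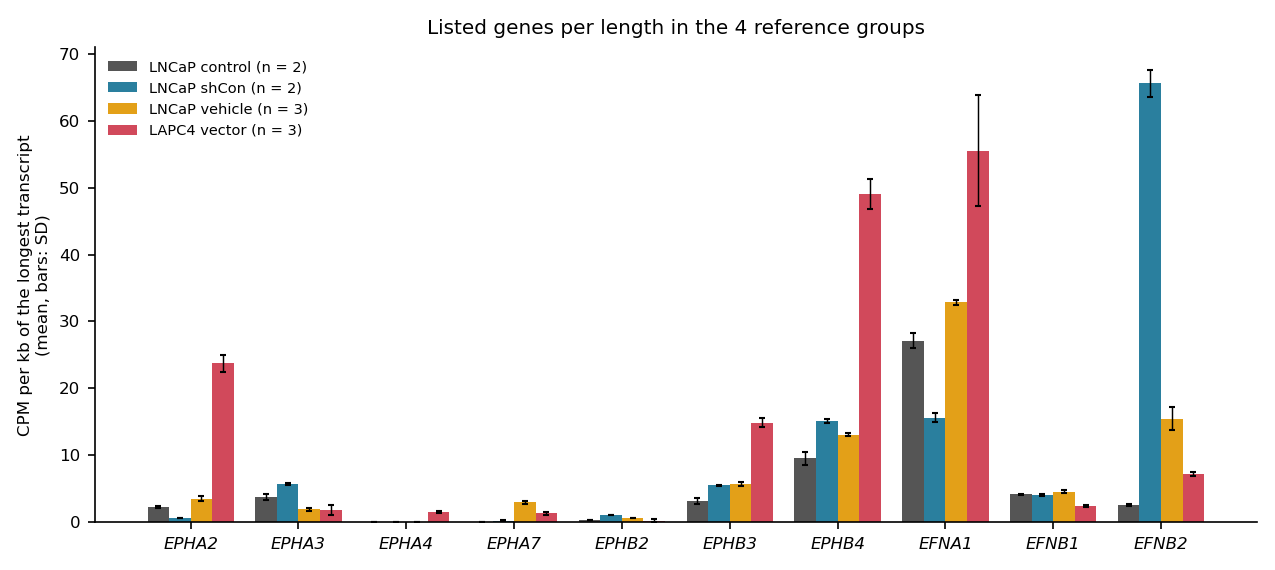
Mean CPM per kb of the longest transcript of each gene in the 4 reference groups, with SD bars (n = 2 for control and shCon, n = 3 for vehicle and LAPC4 vector). EFNA1, EPHB4 and EPHA2 are tallest in LAPC4 vector (55.5, 49.1 and 23.8), and EFNB2 is tallest in shCon (65.6).

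In the order of the 9 group means, EPHA3 ran from enzalutamide (74.8 CPM) over LNCaP overexpression (52.8 CPM), shCon, LAPC4 overexpression and control to shOC2, with overlap between enzalutamide and LNCaP overexpression and among vehicle, LAPC4 vector and combination, which stand next to each other. The wide range of the combination (1.40 to 27.7 CPM) also took in all LNCaP control and LAPC4 overexpression libraries. EFNB2 ran from shCon (328 CPM) to control (12.8 CPM), with overlap between enzalutamide and combination and between the LAPC4 groups. EPHB4 and EPHB3 were highest in LAPC4 vector (248 and 63.1 CPM) and lowest in LNCaP control (48.3 and 13.6 CPM). EPHB2 ran from enzalutamide (17.2 CPM) to LAPC4 vector (3.04 CPM), whose range overlapped that of LNCaP control. EFNB1 varied least, from 18.03 CPM in enzalutamide to 8.12 CPM in LAPC4 vector, and the 5 groups from LNCaP control to LNCaP overexpression in its order overlapped their neighbours.

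The genes with the most similar pattern were sought over the 8 libraries of the LNCaP table, which share 4 groups, among genes of at least 5 CPM, by Pearson correlation of log2(CPM + 0.5). For EPHA3 they were HSP90AB1 (0.997), AARS2 (0.996) and ZBTB22 (0.995), for EPHA7 IKBKB (0.996) and NAB1 (0.992), and for EFNB2 PLA2G12A (0.992), H2AZ1 (0.990) and ASMTL (0.986). For EPHA2 they were STK25, ANKRD24 and PLK3 (0.992 to 0.991). With 4 groups of 2, correlations near 1 are common among many genes, and EFNB1, which hardly varied, had 0.964, 0.885 and 0.754 with its nearest genes.

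The other 12 family genes show what the list leaves out. In LNCaP overexpression 11 were tested, 7 called higher and 3 lower by edgeR, with a median log2 fold change of 0.75, beside 31.6% higher and 29.3% lower of all genes tested. In LAPC4 4 of 11 were called higher and 4 lower, beside 32.1% and 29.0% of all genes, and with the hairpin 6 of 10 higher and 1 lower, beside 27.3% and 26.8%. EFNA5, an A-type ephrin that binds EPHA3, stood at 80.1 and 82.0 CPM in shCon and at 229 and 226 CPM in shOC2 (log2 fold change 1.497 ± 0.05, adjusted p = 2.21e-08). It was thus higher in the libraries in which EPHA3 was lowest, and also higher with overexpression in LNCaP (0.52 ± 0.07, adjusted p = 1.76e-04).

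EFNB3, a B-type ephrin, was at 0 and 4 counts in LNCaP control and at 4.23 and 3.74 CPM in overexpression, with shCon (3.39 and 3.66 CPM) and shOC2 (5.54 and 4.84 CPM) near or above overexpression. It rose in LAPC4 from 0.479, 0.827 and 0.800 CPM to 3.89, 3.42 and 3.64 CPM (log2 fold change 2.37 ± 0.22, adjusted p = 1.01e-05). EPHA10, a receptor without kinase activity, rose in both lines, in LAPC4 from a mean of 0.276 to 2.23 CPM (2.99 ± 0.24, adjusted p = 3.64e-06), and fell with the hairpin (-0.91 ± 0.09, adjusted p = 2.63e-05). In LNCaP its means were 11.01 CPM in control, 20.1 in overexpression, 20.6 in shCon and 10.9 in shOC2, so that overexpression was level with shCon and shOC2 with control. EPHA6 fell with overexpression in both lines (-1.52 ± 0.13 in LNCaP and -1.07 ± 0.17 in LAPC4, adjusted p = 7.84e-06 and 4.42e-04) and rose with the hairpin (0.91 ± 0.10, adjusted p = 5.43e-05). EFNA3 and EFNA4, whose exons overlap the annotated gene AL691442.1 on the same strand, rose with overexpression in LNCaP (0.98 ± 0.11 and 0.75 ± 0.13) and fell in LAPC4 (-1.16 ± 0.11 and -1.06 ± 0.08). Their differences between lines were called (-2.14 and -1.81, edgeR adjusted p = 2.57e-07 and 5.59e-07). Both genes were also called higher with the hairpin, by 0.75 and 1.01 (edgeR adjusted p = 1.02e-05 and 3.63e-06). The shOC2 mean of each was above its overexpression mean, so neither followed the OC2 level over the LNCaP groups. Among low or steadier members, EFNA2 fell with overexpression in LNCaP (from 6.75 to 3.53 CPM, adjusted p = 0.00131), EPHA8 rose there (from 0.305 to 1.07 CPM, adjusted p = 0.008) and EPHA1 fell in LAPC4 (from 17.5 to 10.2 CPM, adjusted p = 3.13e-04), all by edgeR. The shCon mean of EFNA2 was 0.58 CPM, so its direction with overexpression turns with the control set. In the drug experiment EFNB3 was higher in the combination than in vehicle, 10.4 against 1.86 CPM on average (2.48 ± 0.17, adjusted p = 3.996e-06). EFNA3 stood at 103 against 49.7 CPM (1.05 ± 0.12, adjusted p = 7.38e-05). In enzalutamide alone EFNB3 was higher still, at 14.8 CPM, whereas EFNA3 was below vehicle, at 23.6 CPM. Against enzalutamide the combination was called lower for EFNB3 (-0.51 ± 0.14) and higher for EFNA3 (2.13 ± 0.12).

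Proteins that act after Eph receptors (adaptors, regulators of small GTPases, Src and Abl kinases, phosphatases) were described as a list of 34 genes. In LNCaP overexpression 29 were tested, 14 called higher and 6 lower, beside 31.6% and 29.3% of all genes (median log2 fold change 0.29, against 0.02). PAK1, a kinase that acts on the actin skeleton, rose from a mean of 0.438 to 17.5 CPM (5.28 ± 0.19, adjusted p = 2.52e-08), but stood at 20.1 CPM in shCon (5.49 ± 0.19 against control, adjusted p = 6.34e-08). KALRN, a guanine nucleotide exchange factor, fell from 7.20 to 1.26 CPM (-2.53 ± 0.20, adjusted p = 3.79e-06), but shCon already held 2.38 CPM (-1.60 ± 0.18 against control). GRB2, an adaptor, did not pass (-0.09 ± 0.07). In LAPC4 32 were tested, 13 called higher and 10 lower, beside 32.1% and 29.0% (median 0.01 against 0.00). CHN1, a Rac GTPase-activating protein that works after EPHA4 in axons, rose from 0.391 to 17.7 CPM (5.49 ± 0.16, adjusted p = 2.40e-09), TIAM1, a Rac exchange factor, from 0.322 to 10.6 CPM (5.02 ± 0.19, adjusted p = 1.95e-08) and PAK1 from 4.30 to 31.4 CPM (2.87 ± 0.12, adjusted p = 2.91e-08).

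With the hairpin, 28 of the 34 were tested, 6 called higher and 6 lower, beside 27.3% and 26.8% of all genes (median 0.02 against 0.00). GRB10, an adaptor, rose from 98.0 to 170 CPM (0.80 ± 0.06, adjusted p = 4.41e-06), though control held 202 CPM, and NCK2, another, fell from 35.1 to 20.9 CPM (-0.74 ± 0.08, adjusted p = 4.74e-05). In the combination against vehicle, 13 of 30 were called higher and 5 lower, beside 23.2% and 23.6%, with GRB10 rising from 189 to 1130 CPM (2.58 ± 0.09, adjusted p = 1.53e-07) and KALRN from 2.22 to 9.58 CPM (2.11 ± 0.22, adjusted p = 5.31e-05). GRB10 was as high in enzalutamide (1156 CPM), and its difference between the treated arms was not called (-0.03 ± 0.09). KALRN was higher in enzalutamide (20.3 CPM), and the combination was called lower than enzalutamide (-1.08 ± 0.19).

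The second list of 18 genes holds proteases that cut ephrins or Eph receptors and proteins that bind the tail of B-type ephrins. In LNCaP overexpression 5 of 16 were called higher and 6 lower (31.6% and 29.3% of all genes), in LAPC4 4 of 17 and 6 (32.1% and 29.0%), and with the hairpin 6 of 15 and 4 (27.3% and 26.8%). ADAM10, a protease that sheds ephrins, fell with overexpression in LNCaP from 149 to 85.6 CPM (-0.82 ± 0.08, adjusted p = 1.58e-05) and rose with the hairpin from 121 to 198 CPM (0.72 ± 0.05, adjusted p = 2.02e-06). FURIN, a proprotein convertase, was called in the opposite directions, rising in LNCaP overexpression (0.86 ± 0.08, adjusted p = 1.66e-05) and falling with the hairpin (-0.73 ± 0.07, adjusted p = 1.22e-05). Its means were 29.8 CPM in control, 54.7 in overexpression, 70.5 in shCon and 42.4 in shOC2, so that both directions turn with the control set. In LAPC4 the steepest member was MMP14, a membrane-bound metalloprotease that cuts EPHA2, which rose from 0.378 to 117 CPM (8.25 ± 0.15, adjusted p = 1.43e-10). In the combination against vehicle, 6 of 16 were called higher and 1 (DVL1) lower, beside 23.2% and 23.6%.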

How the data were processed

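Per the labels, total RNA of 23 LNCaP and LAPC4 libraries was sequenced on Illumina libraries. The submitters' processing notes name FastQC 0.9.0, Bowtie2 and the hg38 build, while no source used here names the counter or its annotation. The authors deposited whole-number counts per Ensembl gene for LAPC4 and whole counts by symbol for enzalutamide. For the other LNCaP groups the authors deposited estimated counts, which were rounded here. Ensembl identifiers were matched to symbols, and all 22 family genes were found in each table. The numbers in the enzalutamide column names do not match those of the labels, so these columns were used as members of their group.

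Comparisons used edgeR 4.0.16 in R 4.3.3 (TMM, filterByExpr, glmQLFit, glmQLFTest, Benjamini-Hochberg over all tested genes, threshold 0.05). The 3 drug arms were fitted together, other comparisons on their own groups. SEs were derived from the F statistic. The code was tested on simulated data. Alternatives were RLE scaling, DESeq2 1.42.0, no filter, each library left out, the replicate number as a block, and the other LNCaP control set.

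The members and lists were chosen with earlier results of these data known. The motifs, the 4 printed upstream sequences, the genes given a lower bound and the minimum of 300 counts in the check of the drug table were chosen after values were seen. Named genes were the 10 members, other family genes that were called and reached 1 CPM in either group, and from each list, per comparison, at most 4 called genes that reached 5 CPM (largest changes first) and at most 2 uncalled ones (highest levels first). Gene models were GENCODE 29, and upstream sequences RefSeq's (GRCh38.p14). Some genes that these rules would name are not reported here.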

Additional observations from a re-analysis of the deposited data

Results flagged for a closer look

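The response to OC2 overexpression differed between the lines, by an interaction contrast in edgeR, for 8 of the 10 genes. The LAPC4 minus LNCaP log2 fold change was -0.52 for EFNA1 (lower with overexpression in both lines), 0.83 for EFNB1, -1.66 for EFNB2 and -1.24 for EPHA2 (higher in both lines). It was -1.48 for EPHB3 and -1.41 for EPHB4, both higher than control in LNCaP and lower than vector in LAPC4. For EPHA7 it was -12.39 and for EPHA4 -6.13, fitted values that depend on the prior count because LNCaP control held 0 counts of either gene, so neither is a bound. With shCon in place of control, the EPHA7 difference was -3.86. The LNCaP overexpression mean was 0.83-fold that of shCon for EPHB3, 1.04-fold for EPHB4 and 1.34-fold for EFNA1, so these LNCaP directions depend on the control set. The EFNA1 call was lost without LNCaP control replicate 2 (-0.46) or LNCaP overexpression replicate 1 (-0.48). The cause of these differences was not tested.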

How the results depend on the processing

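Over all alternatives, 677 log2 fold changes of single genes kept direction and call, 12 gained a call, 21 lost one and 26 changed sign, and the number of the 10 genes called stayed within 1.5 times its value in each comparison. With shCon as the LNCaP reference for overexpression, EFNB2 (-2.99), EPHB3 (-0.28) and EFNA1 (0.41) turned, and the differences between lines of EFNB2 (2.95) and EPHA3 (0.51) turned. With control as the reference for shOC2, EFNB2 (1.36) and EFNB1 (-0.05) turned. EFNB1 with the hairpin, at 0.00, also turned in DESeq2 (-0.0027), without the filter (-0.01) and on leaving out libraries (-0.08 to 0.09). The remaining sign changes were in values not called with all libraries, and their ranges over left-out libraries were as follows. In combination against enzalutamide they were -0.24 to 0.0018 for EFNB1, -0.49 to 0.01 for EPHA2 and -0.46 to 0.21 for EFNB2. In combination against vehicle they were -0.01 to 0.22 for EFNB1, -2.94 to 0.35 for EPHA3 and -0.37 to 0.40 for EPHA7. They were -0.02 to 0.05 for EFNB2 in LAPC4, -0.09 to 0.01 for EFNB1 in shCon against control, -0.21 to 0.36 for the difference between lines of EPHA3 and -0.18 to 0.67 for that of EPHB2. The cause was not tested.

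Replicate numbers did not pair the libraries: correlations of same-numbered deviations were 0.011, -0.067 and -0.123 in LAPC4, 0.042, 0.124 and 0.062 between combination and vehicle, 0.126 in LNCaP overexpression and -0.047 with the hairpin. With the number as a replicate block, the called genes of the 10 were 8 in LNCaP overexpression, 8 in LAPC4, 7 with the hairpin, 8 between lines and 5 in combination against vehicle (4 higher and EPHA2 lower at -0.51), and the difference between lines of EPHA3 became 0.03. Depth limits EPHA4 in LNCaP, EPHA7 in control and EPHA3 in shOC2, which rest on at most 10 counts a library.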
